A study of Homo sapiens with 6 samples.

Results

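Interferon response and antigen processing genes were followed here as a fixed set of 37 gene symbols out of the 56595 symbols in the deposited expression table. The 37 were chosen by name, with no measured value in the rule, but with earlier results of these data known. They were 23 interferon-induced effector genes, 6 sensors and transcription factors of the pathway, and 8 genes of antigen processing and presentation. The libraries came from H1, an established human embryonic stem cell line, after 8 days of stepwise hematopoietic differentiation, in which endothelial cells form and then give rise to blood cells. The states compared were unedited wild-type (WT) cells in 2 libraries and MSX2-/- cells in 4 libraries. The MSX2-/- cells carry a CRISPR-Cas9 edit of exon 2 of MSX2, a homeobox transcription factor, delivered by a lentivirus with puromycin selection, and came from 2 single-cell colonies, clones 1# and 2#, each with 2 replicates. Each clone is therefore 1 editing outcome, and the source of the WT libraries was not described as a single-cell clone. According to the study, cells carrying CD31, an endothelial surface protein, were collected, although the sample labels name CD31 for the MSX2-/- libraries only. The growth protocol also speaks of HAND1 overexpression, which no sample label carries. Replicates 1 and 2 of WT, 1# and 2# carry different set letters in the labels, F and S, and no source says what a set is or that the replicates are separate cultures, so p-values measure the spread between these libraries.

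Interferons are secreted proteins that bind surface receptors on the same or neighboring cells and switch on JAK kinases. These phosphorylate STAT factors, which enter the nucleus, alone or with IRF9, and turn on a large set of genes whose products block viral entry, translation and budding, cut viral RNA and raise the display of peptides on MHC class I. Class I display needs β2-microglobulin (B2M), the peptide transporter TAP1/TAP2 and proteasome subunits that interferon induces, and sterile signaling through these pathways is known to take part in the emergence of blood stem cells from endothelium.

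STAT2 and IRF9 act in a shared complex at the interferon-stimulated response element (ISRE), and STAT pairs act at the gamma-activated site (GAS). To show what these elements look like in the set, RefSeq promoters (GRCh38.p14) were searched on both strands over the 250 bases before the start for GAAANNGAAA (ISRE letters) and TTCNNNGAA (GAS letters). Of the 37 genes, 28 had a promoter in the table used, and the first listed start was taken for the 7 that had several. ISRE letters stood in 17 of the 28 promoters (60.7%) and in 3.02% of the 35116 promoters of all genes. GAS letters stood in 7 of the 28 (25.0%) and in 6.57% of all promoters, and letters of the 2 motifs overlapped in 2 promoters of the set. A stretch of 30 bases is shown for each of 7 genes, around the ISRE match nearest the start, because these genes carry most of the results that follow. IFITM1, ISG15 and ISG20 were higher in MSX2-/- cells, B2M and BST2 were lower, IFI6 differed between replicates, and TAP1 is the transporter subunit beside PSMB8. Each reads 5′ to 3′ on the strand of the gene, with the matched letters in capitals.
IFITM1, chr11:313990-314019, plus strand: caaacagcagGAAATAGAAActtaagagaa
ISG15, chr1:1013380-1013409, plus strand: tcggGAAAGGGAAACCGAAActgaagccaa
ISG20, chr15:88638937-88638966, plus strand: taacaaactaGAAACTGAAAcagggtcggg
B2M, chr15:44711369-44711398, plus strand: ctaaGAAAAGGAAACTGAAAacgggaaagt
BST2, chr19:17405735-17405764, minus strand: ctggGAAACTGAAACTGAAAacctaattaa
IFI6, chr1:27672266-27672295, minus strand: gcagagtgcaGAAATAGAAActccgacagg
TAP1, chr6:32853813-32853842, minus strand: ccgcTTTCGATTTCGCTTTCccctaaatgg
The ISG15, BST2, B2M and TAP1 stretches each hold 2 overlapping matches, and the other 3 hold 1. The TAP1 match lies on the opposite strand to the gene, so it reads as the reverse complement. No ISRE letters were in the 250 bases before the first listed start of PSMB8, PSMB9 or STAT2. The TAP1 stretch lies outside the bases searched for PSMB9 (chr6:32853942-32854191, plus strand), on the side farther from the PSMB9 start. A match is a description of letters, and both genes that were higher and genes that were lower in MSX2-/- cells have one.

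The deposited values are FPKM (fragments scaled to transcript length and to the mapped fragments of the library), summing to 555229 to 617058 per library. Read totals were not given, and relative depth, taken from the ratio at which values under 0.1 FPKM cluster, ran from 1 to 1.18 times that of WT replicate 1. PECAM1, which encodes CD31, was listed between 186 and 258 FPKM in all 6 libraries, and the pan-leukocyte gene PTPRC at no more than 0.115 FPKM. Other blood genes were present: the hematopoietic marker list that holds PTPRC summed to 59.2 and 86.0 FPKM in WT. In MSX2-/- cells the same list summed to between 116.5 and 160.9 FPKM. MSX2 mRNA itself was higher in the libraries labelled MSX2-/-, at 18.0, 5.62, 31.8 and 6.69 FPKM against 3.64 and 1.44 FPKM in WT (adjusted p = 0.309, and 0.0107 with the replicate block), so its level does not check the labels. MSX2-/- therefore stands throughout for the libraries labelled so.

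The first question was which of the 37 genes differ between MSX2-/- and WT cells. Without the replicate number in the model, IFITM1 rose and B2M and PSMB8 fell (limma on log2(FPKM + 1), Benjamini-Hochberg adjusted p under 0.05 over 15875 genes). Those 3 are 9.68% of the 31 genes of the set that passed the floor of a mean of 0.5 FPKM, beside 1.29% of all genes tested (0.964% higher, 0.321% lower). With the replicate number as a block, 8 passed, 25.8% of the 31 beside 9.92% of all genes (6.15% higher, 3.77% lower): IFITM1, IFITM2, ISG15 and ISG20 rose, and B2M, PSMB8, BST2 and STAT2 fell. In direction, 12 of the 31 had a positive and 19 a negative log2 fold change, with a median of -0.10 beside 0.01 for all genes tested. Leaving out WT replicate 1 gave a median of -0.047, and leaving out WT replicate 2 one of -0.18. Leaving out any 1 of the 6 libraries left none of the 31 past the threshold without the block. With the block PSMB8 passed on leaving out each of the 6 in turn, B2M failed without WT replicate 2, IFITM1 and ISG20 failed without WT replicate 1, BST2 failed without WT replicate 1 or 1# replicate 2, IFITM2 and ISG15 passed only without 2# replicate 1, and STAT2 failed in all 6. In bulk RNA, fewer cells of a type and less RNA per cell cannot be told apart.

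Among the interferon-induced effectors, IFITM1 rose in both models, IFITM2 with the block alone and IFITM3 in neither. IFITM proteins sit in membranes and block the fusion of enveloped viruses, and the 3 genes lie side by side on chromosome 11 (GENCODE 29, GRCh38, IFITM1 at chr11:313506-315272 on the plus strand). IFITM1 was 40.9 and 52.3 FPKM in the WT libraries and 88.2, 77.8, 93.1 and 89.1 FPKM in 1# replicates 1 and 2 and 2# replicates 1 and 2. Every MSX2-/- library lay above both WT libraries, with means of 46.6 ± 8.10 (SD, n = 2) and 87.1 ± 6.50 FPKM (SD, n = 4). The log2 fold change was 0.90 with an SE of 0.139 (limma adjusted p = 0.0408, and 0.00932 with the block).

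IFITM2 was 188 and 201 FPKM in WT and 252, 268, 222 and 265 FPKM in the MSX2-/- libraries, again without overlap. Its log2 fold change of 0.37 had an SE of 0.108 (limma adjusted p = 0.227) and passed the threshold with the block (SE 0.0692, adjusted p = 0.0258). IFITM3, the most abundant of the effectors, was 342 and 442 FPKM in WT and 486, 467, 448 and 495 FPKM in MSX2-/- cells. The groups did not overlap, yet the log2 difference of 0.28 passed neither test (adjusted p = 0.426 and 0.102). Of the distinct stretches of 50 bases in their annotated transcripts, 32.0% for IFITM1, 34.1% for IFITM2 and 17.4% for IFITM3 also occur in another gene, mostly in one another. How the values divide such reads is not known, so the levels of the single paralogs are uncertain.

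ISG15 encodes a ubiquitin-like protein that is attached to other proteins and also secreted. It stood at 38.1 and 28.2 FPKM in WT and at 81.9, 48.0, 55.4 and 62.1 FPKM in MSX2-/- cells, and all 4 exceeded both WT libraries. The log2 fold change was 0.87 (SE 0.233, limma adjusted p = 0.185, and SE 0.176, adjusted p = 0.0329 with the block).

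ISG20, a 3′ to 5′ exonuclease that degrades single-stranded RNA, changed with both the genotype and the replicate number. It was 0.757, 4.44 and 3.59 FPKM in replicate 1 of WT, 1# and 2#, and 4.20, 8.66 and 9.53 FPKM in replicate 2. Within each replicate number both clones exceeded WT, but WT replicate 2 lay above the replicate 1 value of 2#, so the groups overlap when the replicate number is ignored. The log2 fold change of 1.23 therefore had an SE of 0.528 without the block (limma adjusted p = 0.439) and 0.167 with it (adjusted p = 0.00917). Leaving out WT replicate 2 gave 2.02 without the block and 1.51 with it, and leaving out WT replicate 1 gave 0.45 and 0.96.

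IFIT1, which binds viral RNA that lacks a host cap methylation, had the second largest increase of the set at a log2 fold change of 1.16. Its level was 2.77 and 1.48 FPKM in WT cells, against 9.11, 5.08, 3.68 and 6.59 FPKM in the MSX2-/- libraries. All 4 were above WT, but their spread was wide, and neither test passed (SE 0.342, limma adjusted p = 0.230, and 0.0791 with the block). IFIT2, of the same family, was 0.675 and 0.175 FPKM in WT and between 0.938 and 1.75 FPKM in MSX2-/- cells (adjusted p = 0.335, 0.103 with the block), whereas IFIT3 overlapped between groups, at 4.80 to 5.02 and 3.17 to 5.66 FPKM.

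BST2 (tetherin) holds budding virus particles on the cell surface, and it was lower in MSX2-/- cells. It was 420 and 387 FPKM in WT and 287, 301, 311 and 310 FPKM in MSX2-/- cells. The 4 MSX2-/- libraries lay close together at 302 ± 11.1 FPKM (SD, n = 4), below the WT mean of 404 ± 23.3 FPKM (SD, n = 2). On the log2 scale it differed by -0.41 (SE 0.0851, limma adjusted p = 0.0906, and SE 0.0649, adjusted p = 0.0148 with the block).

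Across the 23 effectors, 19 were tested, 11 with positive and 8 with negative log2 fold changes (median 0.12). Of the 31 genes tested, 8 lay higher in all 4 MSX2-/- libraries than in both WT libraries, each of them an effector: IFIT1, IFIT2, IFITM1, IFITM2, IFITM3, ISG15, OAS1 and OAS2. Another 5 were lower in all 4, namely B2M, PSMB8, BST2, IFI35 and DDX58. Among all genes tested, 12.1% were higher and 9.19% lower in that sense. The 2′-5′ oligoadenylate synthetases, which activate RNase L, were low throughout, with OAS1 at 0.590 to 1.31, OAS2 at 0.250 to 1.04 and OAS3 at 2.02 to 3.27 FPKM. MX1 and MX2, GTPases that trap viral nucleocapsids, stayed between 0.217 and 1.15 FPKM. IFI27, a mitochondrial protein, was 1.34 to 4.57 FPKM, IFIT5 0.814 to 1.76 FPKM and IFI35 0.735 to 1.76 FPKM, and none of the 3 passed in either model. IFI44, IFI44L, OASL and XAF1 were under the floor, none above 0.750 FPKM in any library.

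Of the 6 sensors and factors, 5 were tested and all 5 had negative log2 fold changes, with a median of -0.29. STAT2, which joins IRF9 in the complex of the type I response, was 35.2 and 24.8 FPKM in WT and 22.9, 18.2, 27.5 and 18.9 FPKM in MSX2-/- cells. In each replicate number both clones were below WT, while the groups overlapped across replicate numbers. Its log2 difference of -0.44 passed the threshold with the block alone (SE 0.0965, limma adjusted p = 0.0422) and not without it (SE 0.221, adjusted p = 0.533), where leaving out WT replicate 1 gave -0.19 and leaving out WT replicate 2 gave -0.68. The blocked values on the same omissions were -0.40 and -0.47. IRF7 was nearly level, at 9.94 to 11.8 FPKM in all 6 libraries. DDX58 (RIG-I), a cytosolic sensor of viral RNA, was 2.36 and 0.995 FPKM in WT and 0.498 to 0.907 FPKM in MSX2-/- cells (adjusted p = 0.446, and 0.0991 with the block). IRF1 and IRF9 overlapped between groups, at 3.04 to 4.98 and 8.36 to 20.1 FPKM over the 6 libraries, and IRF9 shares 43.2% of its 50-base stretches with the overlapping annotated gene AL136295.5. IFIH1 (MDA5), the related RNA sensor, was under the floor at 0.200 to 0.713 FPKM.

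Antigen processing genes held the 2 decreases that passed both models. B2M, the invariant light chain of MHC class I, is the most abundant gene of the set. It was 644 and 655 FPKM in WT and 467, 426, 419 and 438 FPKM in the MSX2-/- libraries. The difference was large beside the spread of either group, with means of 650 ± 7.70 FPKM (SD, n = 2) and 437 ± 21.0 FPKM (SD, n = 4). On the log2 scale B2M fell by 0.57 (SE 0.0811, limma adjusted p = 0.0328, and 0.00493 with the block).

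PSMB8 (LMP7) replaces PSMB5 in the immunoproteasome, the form of the proteasome that is geared to cut peptides for class I. The gene lies in the MHC region at chr6:32840717-32844703 on the minus strand (GENCODE 29, GRCh38), next to TAP1 and TAP2 and overlapping PSMB9. Its level was 5.42 and 5.10 FPKM in WT and 1.90, 1.68, 1.49 and 1.67 FPKM in MSX2-/- cells. All 4 MSX2-/- libraries lay below both WT libraries, and the means were 5.26 ± 0.228 FPKM (SD, n = 2) and 1.69 ± 0.170 FPKM (SD, n = 4). This was the largest decrease of the set, a log2 fold change of -1.22 (SE 0.160, limma adjusted p = 0.0284, and 0.00454 with the block), with a range of -1.26 to -1.19 when single libraries were left out. On the other strand PSMB8-AS1 and PSMB9 both overlap PSMB8, and the use of strand in counting is not given. PSMB8-AS1 was listed at no more than 0.260 FPKM, and PSMB9 at 0.640 to 3.08 FPKM. The effect of this overlap on the PSMB8 values was not tested.

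The neighbors of PSMB8 were less uniform. PSMB9 (LMP2), the second inducible catalytic subunit, was 2.88 and 3.08 FPKM in WT and 3.03, 0.640, 1.59 and 1.11 FPKM in MSX2-/- cells. TAP1 was 2.39 and 3.50 FPKM in WT and 2.64, 1.11, 1.67 and 1.07 FPKM in MSX2-/- cells. For both genes 1# replicate 1 lay within the WT range and the other 3 MSX2-/- libraries lay below it. Neither passed a test, at log2 differences of -0.70 and -0.61 (limma adjusted p = 0.532 and 0.488, and 0.177 and 0.194 with the block). TAP2 varied from 0.905 to 3.62 FPKM within clone 1# alone, and 31.3% of its 50-base stretches also occur in the overlapping annotated gene AL669918.1.

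Subunits of the same proteasome positions were compared after the values of PSMB8 had been seen. PSMB5, the constitutive subunit in the position of PSMB8, was 97.2 to 98.9 FPKM in WT and 104 to 125 FPKM in MSX2-/- cells (log2 difference 0.20, limma adjusted p = 0.561, 0.166 with the block). PSMB6 and PSMB7 stood between 140 and 176 FPKM in all libraries. The third inducible subunit, PSMB10, overlapped between groups at 7.29 to 8.12 and 6.23 to 9.53 FPKM (log2 difference 0.02, adjusted p = 0.992). FPKM is a level per length, and on that scale the constitutive subunits stood far above the inducible ones in every library.

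**Figure D1:**
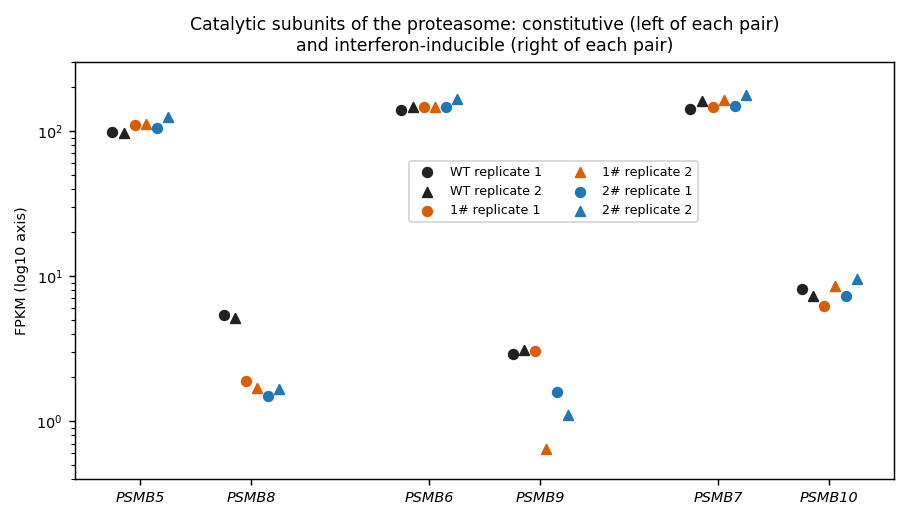
FPKM on a log10 axis of the 3 constitutive catalytic subunits of the proteasome (PSMB5, PSMB6 and PSMB7) and, at the right of each, the inducible subunit of the same position (PSMB8, PSMB9 and PSMB10), with 1 point per library. PSMB8 was 5.10 to 5.42 FPKM in WT and 1.49 to 1.90 FPKM in MSX2-/- cells. PSMB5 was slightly higher in every MSX2-/- library than in WT, PSMB9 and PSMB10 overlapped between groups, and PSMB6 and PSMB7 show no fall of that size.

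HLA-E, a nonclassical class I heavy chain that presents to natural killer cells, was 166 and 145 FPKM in WT and 161, 124, 171 and 128 FPKM in MSX2-/- cells, so the groups overlapped (log2 difference -0.10, limma adjusted p = 0.913, 0.403 with the block). CD74, the invariant chain of MHC class II, was 25.0 and 19.1 FPKM in WT and 20.7 to 26.5 FPKM in MSX2-/- cells (log2 difference 0.16, adjusted p = 0.839, 0.374 with the block). CIITA, the master regulator of class II, was under the floor, between 0.0284 and 0.462 FPKM. Of the 7 antigen processing genes tested, 6 had negative log2 fold changes and 1 a positive one, with a median of -0.57.

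**Figure D2:**
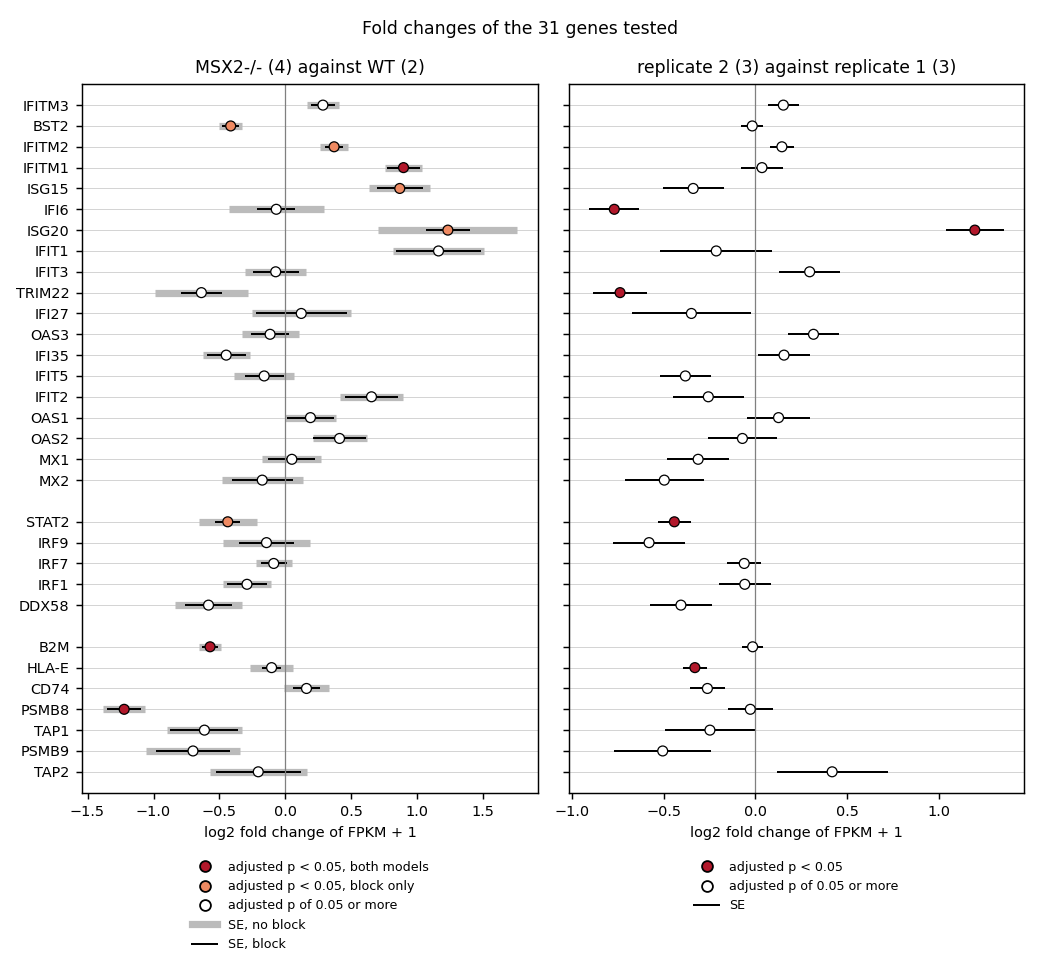
Log2 fold change of FPKM + 1 (horizontal axes) of the 31 genes tested, for MSX2-/- against WT (left) and replicate 2 against replicate 1 (right), with bars of 1 SE, the wide gray bars without and the thin black bars with the replicate block. Filled points passed an adjusted p of 0.05, in dark red at left for IFITM1, B2M and PSMB8 in both models and in orange for the 5 genes that passed with the block alone.

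The 2 clones were then set beside each other. With the block, 5 of the 31 genes passed for 1# against WT (IFITM1 and ISG20 higher, BST2, B2M and PSMB8 lower), beside 3.46% of all genes tested. For 2# against WT 4 passed, the same genes other than BST2, beside 3.75% of all genes. Both comparisons use the same WT libraries, and their spread is estimated from all 6 libraries together. Without the block, with the 3 lines as groups, none of the 31 passed for either clone. Of all genes, 1 fell and none rose in each of those comparisons. In PSMB8 the log2 difference was -1.17 in 1# and -1.28 in 2# (SE 0.168 each), and in IFITM1 it was 0.83 and 0.96 (SE 0.144 each). Between the clones, none of the 31 passed (limma, adjusted) and none had an unadjusted p under 0.05, while over all genes none passed and 3.34% had an unadjusted p under 0.05. The largest difference between the clones was in IFIT1, at -0.40 for 2# against 1# on the log2 scale (SE 0.366, adjusted p of 1).

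The second comparison was replicate 2 against replicate 1, with 3 libraries on each side and a term for the genotype. Of the 31 genes, 5 passed (16.1%), 1 higher and 4 lower, beside 34.6% of all genes tested (15.7% higher, 18.9% lower). The share of calls in the set was thus below that of all genes. Of the 31, 9 had positive and 22 negative log2 fold changes, and the median was -0.21 beside -0.03 for all genes. Only OAS3 was higher in all 3 libraries of replicate 2 (beside 18.8% of all genes), and IFI6, IFIT5, MX1, MX2, IRF9 and HLA-E were lower in all 3 (beside 22.7%).

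IFI6, a small membrane protein of mitochondria and endoplasmic reticulum that restricts flaviviruses, was 15.7, 15.7 and 18.4 FPKM in replicate 1 of WT, 1# and 2#, and 10.5, 9.90 and 7.69 FPKM in replicate 2. The replicates did not overlap in any genotype, and the log2 fold change was -0.77 (SE 0.137, limma adjusted p = 0.00881). TRIM22, an antiviral ubiquitin ligase, was 6.84, 3.53 and 4.94 FPKM in replicate 1 and 3.88, 1.81 and 2.31 FPKM in replicate 2, a fall within each line (log2 fold change -0.74, SE 0.149, adjusted p = 0.0132). In TRIM22, 12.1% of 50-base stretches occur in other genes too. ISG20 rose by 1.20 on the log2 scale (SE 0.157, adjusted p = 0.00359), with the values given above.

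STAT2 was lower in replicate 2 in all 3 lines, by -0.44 on the log2 scale (SE 0.0910, limma adjusted p = 0.0141). HLA-E was 161 to 171 FPKM in replicate 1 and 124 to 145 FPKM in replicate 2 (log2 fold change -0.33, SE 0.0669, adjusted p = 0.0134). By contrast, B2M, BST2 and PSMB8, which were lower in MSX2-/- cells, had replicate differences of -0.01, -0.02 and -0.03 (SE 0.0591, 0.0612 and 0.123). The genotype effect was not found to depend on the replicate number in any of the 31 genes (limma interaction term, 0 called, beside 0.0189% of all genes). At an unadjusted p under 0.05 there were 3 of the 31 (IFITM1, IFITM3 and TAP1), a smaller share than the 11.4% of all genes. The fit had 2 residual degrees of freedom. The interaction terms of these 3 were -0.47, -0.33 and -0.98 on the log2 scale (SE 0.153, 0.118 and 0.340). None passed (limma adjusted p = 0.406, 0.426 and 0.415).

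**Figure D3:**
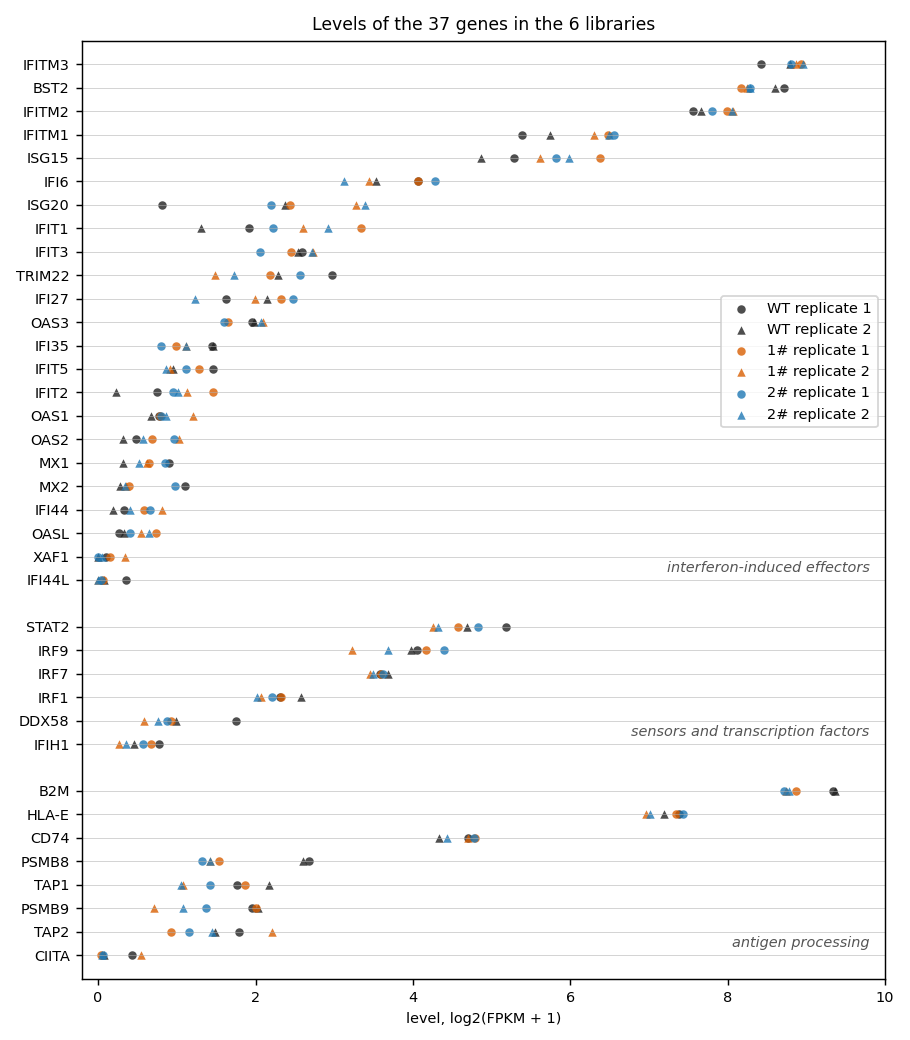
Level of each of the 37 genes in the 6 libraries as log2(FPKM + 1), grouped by role and ordered by mean level, with black for WT, orange for 1#, blue for 2#, circles for replicate 1 and triangles for replicate 2. B2M, IFITM3, BST2, IFITM2 and HLA-E stand highest, at means of 508, 446, 336, 233 and 149 FPKM, and 6 genes lie under the floor of 0.5 FPKM.

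Genes around the set were read from lists written by role. Of 21 interferon ligands, 18 were listed at 0 in all 6 libraries and none reached the floor; IFNG was the highest, at 0.353 FPKM in WT replicate 1. The receptors were measured, with IFNAR1 at 12.5 to 19.8 and IFNGR1 at 27.1 to 34.5 FPKM. Of 15 receptor and JAK-STAT genes tested, none passed for MSX2-/- against WT in either model, and STAT3 rose and IFNGR2 and IL10RB fell from replicate 1 to 2 (3 of 15, beside 34.6% of all genes).

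Of 17 nucleic acid sensing genes tested, none passed without the block, where 1.29% of all genes did. With the block 9.92% of all genes passed. With it TMEM173 (STING), the adaptor of cytosolic DNA sensing, rose from 15.2 and 27.8 to between 42.0 and 44.8 FPKM (log2 fold change 1.04, limma adjusted p = 0.0186), and IFI16, a nuclear DNA sensor, fell from 166 and 127 to between 96.1 and 120 FPKM (-0.42, adjusted p = 0.0148). Between replicates 7 of the 17 passed, beside 34.6% of all genes: IKBKE and MYD88 rose, and TRIM25, IRF3, SAMHD1, TICAM1 and IFI16 fell. Of 24 further interferon-stimulated genes tested, none passed for MSX2-/- against WT in either model, with 5 positive and 19 negative log2 fold changes. Between replicates 10 of the 24 passed, 2 higher (LAP3 and CMPK2, beside 15.7% of all genes) and 8 lower (beside 18.9%), led by TDRD7, PARP9 and HERC5 at log2 fold changes of -0.96, -0.77 and -0.67.

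Of 16 other class I genes tested, none passed for MSX2-/- against WT in either model. HLA-B was 201, 171 and 185 FPKM in replicate 1 and 168, 80.4 and 64.0 FPKM in replicate 2 (log2 fold change -0.95, limma adjusted p = 0.0201). NLRC5, the transactivator of class I genes, was 2.16 and 2.25 FPKM in WT and 0.637 to 1.74 FPKM in MSX2-/- cells (adjusted p = 0.359, 0.106 with the block), and was singled out after its values were seen. Between replicates 6 of the 16 passed, beside 34.6% of all genes, among them CALR, CANX and PSMB7, which rose, and HLA-B and HLA-F, which fell. Of 10 class II genes tested, HLA-DQB1 and IFI30, a lysosomal thiol reductase, rose in MSX2-/- cells with the block alone, beside 6.15% of all genes. Their log2 fold changes were 0.86 and 0.87 (limma adjusted p = 0.00755 and 0.0185). Between replicates 3 of the 10 rose (HLA-DQB1, RFX5 and RFXANK, beside 15.7% of all genes) and HLA-DPB1 fell (beside 18.9%). HLA genes are highly variable between people, and the effect of mapping to a reference on their levels was not tested.

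Of 19 inflammatory and NF-κB genes tested, none passed without the block, and 4 passed with it, beside 9.92% of all genes. SELE (E-selectin), an endothelial adhesion molecule, rose from 19.1 and 18.7 to between 39.0 and 90.1 FPKM (log2 fold change 1.71, limma adjusted p = 0.0172), TNFAIP3 rose by 0.59, and the tumor necrosis factor receptors TNFRSF1A and TNFRSF1B fell by 0.38 and 0.71. Between replicates 6 of the 19 passed, beside 34.6% of all genes: TLR4, NFKB1, TNFAIP3 and TNFRSF1A rose, and RELA and TNFRSF1B fell.

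Markers of cell types moved with the genotype, and some with the replicate number, beside these results. Over all genes tested, 0.964% rose and 0.321% fell without the block, and 6.15% rose and 3.77% fell with it. Of 8 endothelial markers, 7 had negative log2 fold changes and 2 fell (CDH5 and TIE1, 5 with the block). Their summed level in replicates 1 and 2 was 3040 and 3633 FPKM in WT. It was 2038 and 3017 FPKM in 1#, and 1973 and 3131 FPKM in 2#. All 8 had positive interaction terms of genotype and replicate number (limma), none past the adjusted threshold. At an unadjusted p under 0.05 there were 4, beside 11.4% of all genes. Of 7 hematopoietic markers tested, all 7 had positive log2 fold changes and 2 rose, KLF1, an erythroid factor, among them (3 with the block, SPN among them), with a summed level of 59.2 to 86.0 FPKM in WT and 116 to 161 FPKM in MSX2-/- cells. The myeloid list summed to 34.8 to 40.1 and 34.7 to 42.5 FPKM, with MPO at no more than 0.214 FPKM, none past the threshold without the block, and TYROBP higher and AIF1 lower with it. Lymphoid markers summed to 0.476 and 0.491 FPKM in WT and to between 1.12 and 3.28 FPKM in MSX2-/- cells, with MS4A1 at 0 in every library. Only 1 lymphoid marker was tested, and it passed in neither model (log2 fold change 1.13). Of 7 mesenchymal markers tested COL1A1 rose (3 with the block), and the list summed to 917 to 1231 and 1006 to 1148 FPKM. No pluripotency marker passed without the block (1 rose with it), with sums of 63.1 to 74.1 and 80.7 to 99.3 FPKM, and no hepatic marker passed in either model, with sums of 39.7 to 70.5 and 12.2 to 225 FPKM. Between replicates 3 of 8 endothelial, 2 of 7 hematopoietic and 1 of 3 pluripotency markers rose, beside 15.7% of all genes. In the same comparison 2 of 7 mesenchymal and 2 of 5 hepatic markers fell, beside 18.9%, and no myeloid or lymphoid marker passed. The part of these markers in the values of the interferon and antigen processing genes was not tested.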

How the data were processed

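RNA-seq of 6 libraries was deposited by the authors as FPKM values per gene symbol, with replicates in separate columns. The notes in the labels name TopHat and Cufflinks as well as BWA, Bowtie, RSEM and the build hg19, without their roles. Versions, annotation and use of strand are not given in the sources used here. One row without values was left out, and 342 symbols stood on more than 1 row, of which the highest on average was kept. The members and lists were chosen with earlier results of these data known.

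The 15875 genes that averaged 0.5 FPKM or more were compared on log2(FPKM + 1) with limma 3.58.1 (R 4.3.3, empirical Bayes with a mean-variance trend), with Benjamini-Hochberg adjustment over all of them. This scale understates the fold changes of low genes. The code of the fits was run on simulated data without differences between clones, which does not test the calls made here. MSX2-/- was compared with WT without a block and, as the second model, with the replicate number as one, which the design named as an alternative. The labels give WT and both clones replicates 1 and 2. The replicate 2 minus replicate 1 differences correlated across genes at r = 0.509 for WT and 1#, 0.540 for WT and 2# and 0.638 for the clones, so the numbers were taken to pair the libraries. The columns name the clones 1# and 2#, and the labels number them 7 and 10 without saying which is which. Values in every library are given for genes past the threshold in either comparison, the 8 with the highest mean and those with an absolute log2 fold change of at least 1. Without read totals no counting interval is given. Gene positions are from GENCODE 29 (97.0% of symbols found, all 37 members) and promoters from RefSeq. Results of some single genes are not reported here.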

Additional observations from a re-analysis of the deposited data

Results flagged for a closer look

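In 3 of the 37 genes, 1 of the 4 MSX2-/- libraries stood apart from the other 3 by Dixon's criterion, which flags about 1 in 20 groups of 4 by chance. CIITA was 0.462 FPKM in 1# replicate 2 and 0.0284 to 0.0457 FPKM in the other 3 libraries. MX2 was 0.970 FPKM in 2# replicate 1 and 0.268 to 0.313 FPKM in the others. OAS1 was 1.31 FPKM in 1# replicate 2 and 0.722 to 0.816 FPKM in the others. In the reported models MX2 and OAS1 passed no test between groups, and CIITA, under the floor, was not tested.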

How the results depend on the processing

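The counts for MSX2-/- against WT depended on the model more than the fold changes did: in no alternative did any of the 8 genes change direction. As reported without the block, 3 of the 31 genes and 204 of all genes were called. The replicate block gave 8 and 1575, the block with rescaled libraries 8 and 1620, and the block without the filter on low values 2 and 510. None of the 31 passed with 3 groups (6 of all genes), without the filter (127), or with 1# alone (0) or 2# alone (1) against WT, and 1 passed without the mean-variance trend. Leaving out single libraries gave 0 of the 31 and 11 to 76 of all genes. The block itself was named in the design, but leaving out single libraries under it was an alternative chosen after seeing the data. Those runs gave 2 and 674 without WT replicate 1, 4 and 729 without WT replicate 2, and 5 and 666 without 1# replicate 1. They gave 4 and 797 without 1# replicate 2, 8 and 904 without 2# replicate 1, and 5 and 684 without 2# replicate 2. A pseudocount of 0.1, a floor of 2 FPKM and rescaling without the block called the same 3 genes. Left-out libraries and single clones leave fewer samples, and no filter adds genes to the adjustment. For the other changes the cause was not tested.

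For replicate 2 against replicate 1, 5 of the 31 genes were called as reported, 2 without the genotype term and 3 to 5 on leaving out single libraries, of 3111 and 3090 to 4713 of all genes. No filter gave 3608. IFI6 and ISG20 passed on leaving out each library, whereas TRIM22 failed without 1# replicate 2, HLA-E without either 1# library or 2# replicate 2, and STAT2 without either WT library, 1# replicate 2 or 2# replicate 1. The median of the genes of the set was -0.27 with a pseudocount of 0.1, -0.071 without the filter, -0.14 with a floor of 2 FPKM and -0.18 to -0.049 on leaving out single libraries. The interaction called 0 of all genes with a pseudocount of 0.1. Read totals are not known, so how far depth limits the low genes cannot be stated.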
